A study of Mus musculus with 44 samples.

Results

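Blood group antigens are surface molecules of red cells that differ between people, and the genes that carry them encode membrane proteins made while a red cell precursor matures. The 6 genes described here are the mouse genes Kel, Icam4, Ermap, Rhd, Gypc and Xk, taken by name as 6 of the 18193 genes on the array. The mouse proteins are studied as relatives of the human antigen carriers, and the measurements concern RNA, not antigens. Each gene was read from the probe sets that carry its symbol and no other, which gave 7 probe sets of 45037, a pair of them for Xk, and the brighter of that pair stood for Xk. Their expression was measured on 44 Affymetrix arrays of B6C3F1 mice, a hybrid laboratory strain, given 2-butoxyethanol (2BE) or vehicle.

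2BE is a glycol ether solvent whose acid metabolite is known to lyse rodent red cells. The arrays covered liver and spleen at 4 h and liver, spleen and bone marrow at 7 d. Vehicle was represented by 3 liver and 4 spleen arrays at 4 h and by 4 liver, 5 marrow and 5 spleen arrays at 7 d. The mice given 2BE contributed 4 liver and 4 spleen arrays at 4 h and 5 arrays of each tissue at 7 d. Groups follow the sample titles; the treatment field says reduced oxygen on all 2BE arrays and control on all vehicle arrays. No dose, route, age or sex is stated in the labels. All mice were killed under ketamine and acepromazine anaesthesia. Per the series' design text, marrow came from the right humerus, liver from the left lateral lobe and spleen from a cross-section, so each array holds a mixture of cells.

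The albumin gene Alb, a hepatocyte marker, lay at 15.20 to 15.41 on the log2 scale in liver arrays, Cd79a of B cells at 10.54 to 13.13 in spleen arrays and Elane of granulocyte precursors at 12.97 to 13.48 in marrow arrays. The median intensity of all probe sets fell into 5 bands by tissue and time (41.2 to 42.4 in liver at 4 h, 109 to 112 in spleen at 7 d), so levels were compared only within a tissue and time. The labels give replicate numbers but do not say whether arrays came from separate mice, and p-values measure the spread between these arrays. In tissue RNA, more cells of a type and more RNA per cell cannot be told apart.

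The 6 proteins sit in known assemblies of the red cell membrane. Kell, encoded by Kel, is a zinc endopeptidase that is linked by a disulfide bond to XK, a membrane protein that moves lipids between the leaflets. Rhd encodes the Rh protein, a relative of ammonium transporters that assembles with the Rh-associated glycoprotein Rhag near the anion exchanger band 3. Icam4, the Landsteiner-Wiener glycoprotein, binds integrins and is known for contacts between erythroblasts and macrophages, and Ermap is a butyrophilin-like immunoglobulin protein. Gypc encodes glycophorin C, which ties the membrane to the skeleton through protein 4.1. Red cell precursors mature in marrow and, in mice, also in spleen, whose output grows when red cells are lost.

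GATA1 is the main transcription factor of red cell precursors and reads short GATA words in DNA. The stretch before the start of 4 of these genes is shown because those genes moved together in the arrays and because each stretch holds such a word close to the start. RefSeq promoter windows (build GRCm38.p6) were matched for 5 of the 6 genes, by symbol. Each line gives the 250 bases before the start, 5′ to 3′ on the strand of the gene, and capitals mark GATA preceded by A or T and followed by A or G, read on either strand. The windows are chr6:41704326-41704575 on the minus strand for Kel, chr9:21029182-21029431 on the plus strand for Icam4, chr4:119189996-119190245 on the minus strand for Ermap and chr4:134864286-134864535 on the plus strand for Rhd.
Kel: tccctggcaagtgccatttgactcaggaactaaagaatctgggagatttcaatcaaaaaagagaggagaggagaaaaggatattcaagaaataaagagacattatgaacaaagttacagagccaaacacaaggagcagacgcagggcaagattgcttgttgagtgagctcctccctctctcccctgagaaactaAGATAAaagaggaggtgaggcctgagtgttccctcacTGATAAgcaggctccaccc
Icam4: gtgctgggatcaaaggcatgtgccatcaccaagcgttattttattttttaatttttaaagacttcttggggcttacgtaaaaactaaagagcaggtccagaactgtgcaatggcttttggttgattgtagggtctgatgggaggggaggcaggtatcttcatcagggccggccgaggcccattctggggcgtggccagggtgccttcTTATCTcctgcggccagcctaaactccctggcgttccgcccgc
Ermap: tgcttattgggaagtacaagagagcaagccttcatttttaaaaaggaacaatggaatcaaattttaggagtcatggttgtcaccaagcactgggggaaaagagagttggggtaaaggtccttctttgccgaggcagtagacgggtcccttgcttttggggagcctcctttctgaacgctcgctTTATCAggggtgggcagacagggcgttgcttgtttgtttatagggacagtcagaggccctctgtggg
Rhd: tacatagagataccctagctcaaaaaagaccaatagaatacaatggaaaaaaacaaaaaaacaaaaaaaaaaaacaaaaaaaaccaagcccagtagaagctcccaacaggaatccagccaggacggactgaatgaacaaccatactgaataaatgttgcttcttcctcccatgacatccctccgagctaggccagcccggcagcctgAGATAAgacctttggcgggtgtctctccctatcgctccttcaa

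The Kel window holds 2 of these words, AGATAA at 56 to 51 bases before the start and TGATAA at 19 to 14. Rhd has AGATAA at 43 to 38 bases before its start. In Icam4 the word lies at the same distance, 43 to 38, and in Ermap at 67 to 62, both on the opposite strand (printed as TTATCT and TTATCA). The 250 bases before Xk (chrX:9272534-9272783, plus strand) hold 0 of these words. Among all 32851 RefSeq windows 26.5% hold at least 1 in the 250 bases and 10.4% in the 100 bases nearest the start. The smaller stretch was chosen after the matches had been seen. A match describes the letters only and shows no binding.

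All 6 genes rose in the spleen at 7 d, by 1.76-fold to 12.4-fold, and by 1.17-fold to 1.46-fold in the marrow at 7 d. Called means an adjusted p under 0.05 from limma with Benjamini-Hochberg adjustment over 18193 genes. In the spleen, 32.4% of all genes were called higher, and in the marrow 9.40% (32.0% and 10.7% were called lower). In the spleen the arms did not overlap for any of the 6 genes, as for 20.0% of all genes in that direction. In the marrow they did not overlap for 5, the exception being Xk, as for 7.55% of all genes. The median log2 fold change of the 6 was 3.14 in the spleen at 7 d (0.051 over all genes) and 0.45 in the marrow (0.0067 over all genes). None of the 6 was called in liver or spleen at 4 h or in liver at 7 d.

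**Figure D1:**
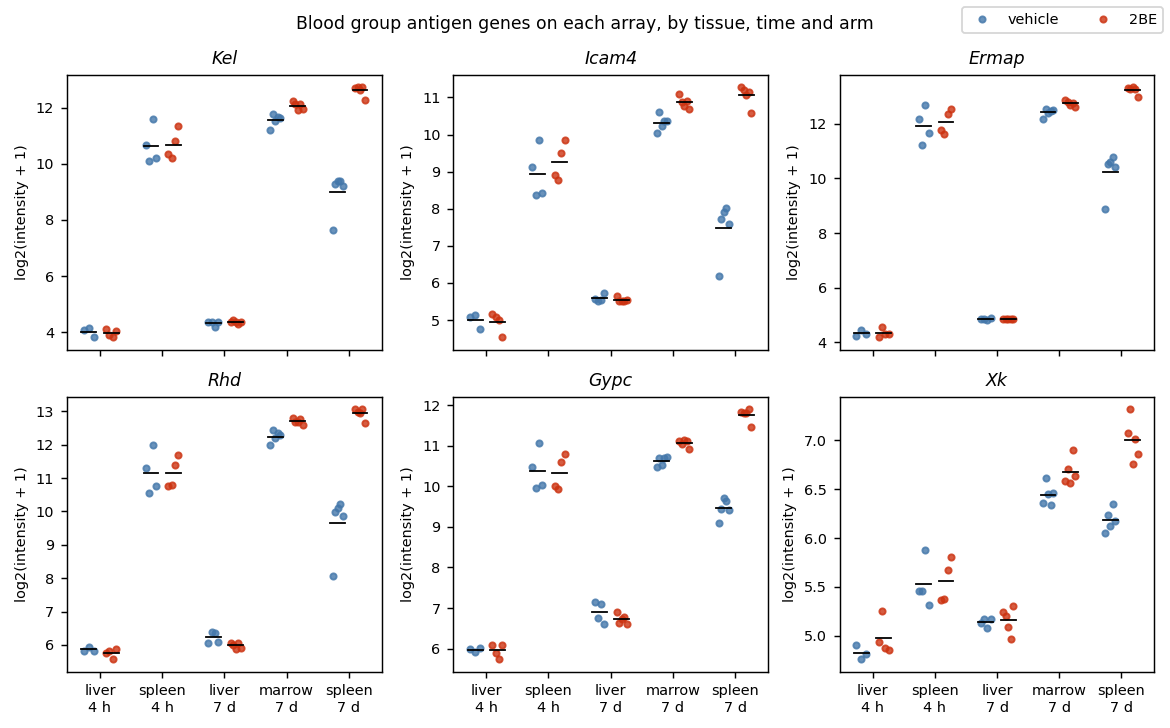
Each panel plots a gene on the 44 arrays, with log2(intensity + 1) on the vertical axis and tissue and time on the horizontal axis; points are arrays (blue vehicle, red 2BE) and bars are group means. In the spleen at 7 d all 5 2BE arrays lie above all 5 vehicle arrays in every panel, while in both liver sets the arms overlap; levels of different tissues or times are not comparable.

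Kel had the largest rise of the 6. Its intensity in the spleen at 7 d was 199, 620, 660, 665 and 595 on vehicle replicates 1 to 5 and 6539, 6783, 6380, 6778 and 4942 on 2BE replicates 1 to 5. Vehicle replicate 1 and 2BE replicate 5 were the lowest arrays of their groups, and the arms were far apart. The rise was 12.4-fold (log2 fold change 3.63 ± 0.32 SE, limma adjusted p = 5.5e-08), the 11th largest of 18193 genes.

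In the marrow Kel read 2353, 3482, 2910, 3276 and 3185 on the vehicle arrays and 4773, 4410, 3893, 4437 and 3959 on the 2BE arrays. All 2BE arrays lay above all vehicle arrays, and the rise was 1.42-fold (0.51 ± 0.095, limma adjusted p = 0.00195).

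Xk, whose product is joined to Kell, rose less. Its brighter probe set read 65.2, 74.7, 68.7, 80.8 and 70.9 on the spleen vehicle arrays at 7 d and 134, 159, 107, 128 and 115 on the 2BE arrays. The arms were apart, and the rise was 1.76-fold (0.82 ± 0.12, limma adjusted p = 9.1e-06). Vehicle means of Xk lay under the median of all probe sets in every tissue and time, and with no detection values used here the size of its fold changes is uncertain. The second Xk probe set gave 1.10 ± 0.13 (limma adjusted p = 1.2e-06 over 34945 probe sets).

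In the marrow the brighter Xk probe set read 81.2, 97.4, 86.2, 79.8 and 87.1 in vehicle and 94.4, 104, 93.0, 119 and 98.5 with 2BE. Vehicle replicate 2 lay above 2BE replicates 1 and 3. The rise was 1.17-fold (0.23 ± 0.074, limma adjusted p = 0.0400). It was not called when any 1 of 7 arrays was left out: vehicle replicates 1, 3, 4 or 5 (adjusted p = 0.0898, 0.0737, 0.0979 and 0.0686) or 2BE replicates 2, 4 or 5 (0.0768, 0.0954 and 0.0509). The second probe set, at 56.4 to 70.9 in vehicle and 75.0 to 91.4 with 2BE, had arms that did not overlap (0.38 ± 0.072, limma adjusted p = 0.00255).

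Rhd, the Rh protein gene, read 268, 1017, 1106, 1191 and 926 on the spleen vehicle arrays at 7 d and 8591, 8040, 7897, 8618 and 6448 on the 2BE arrays. Again vehicle replicate 1 and 2BE replicate 5 were lowest. The rise was 9.81-fold (3.29 ± 0.34, limma adjusted p = 2.2e-07). In the marrow Rhd went from 4027, 5603, 4660, 5187 and 4966 to 7134, 6498, 6614, 6926 and 6141, with all 2BE arrays higher (1.37-fold, 0.45 ± 0.079, limma adjusted p = 0.00112).

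Icam4, the adhesion molecule of erythroblast contacts, read 71.5, 210, 241, 257 and 190 on the spleen vehicle arrays at 7 d and 2487, 2356, 2132, 2250 and 1525 on the 2BE arrays. The rise was 11.9-fold (3.57 ± 0.32, limma adjusted p = 7.6e-08). In the marrow the vehicle arrays stood at 1057, 1577, 1191, 1311 and 1320 and the 2BE arrays at 2161, 1873, 1751, 1912 and 1658. Icam4 thus had the largest marrow rise of the 6, at 1.46-fold (0.54 ± 0.097, limma adjusted p = 0.00131), with arms apart. In GRCm38.p6 Icam4 lies between Icam1, an adhesion gene of leukocytes and endothelium, and Icam5, a neuronal adhesion gene. Spleen Icam1 fell at 7 d (-1.11 ± 0.19, limma adjusted p = 5.0e-05), and Icam5 rose by a smaller amount (0.54 ± 0.081, adjusted p = 1.5e-05).

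Ermap, the erythroid immunoglobulin protein, read 466, 1492, 1578, 1767 and 1383 on the spleen vehicle arrays at 7 d and 10279, 9983, 10407, 9900 and 8198 on the 2BE arrays. All 2BE arrays exceeded the highest vehicle array, and the rise was 7.97-fold (3.00 ± 0.31, limma adjusted p = 2.4e-07). In the marrow it went from 4629, 6008, 5411, 5697 and 5829 to 7497, 7159, 6703, 6937 and 6246. That rise was 1.26-fold (0.33 ± 0.074, limma adjusted p = 0.00622), with arms apart.

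Gypc, the glycophorin C gene, read 544, 690, 841, 800 and 685 on the spleen vehicle arrays at 7 d and 3638, 3554, 3589, 3813 and 2819 on the 2BE arrays. The rise was 4.92-fold (2.30 ± 0.20, limma adjusted p = 4.9e-08). In the marrow the arrays stood at 1416, 1646, 1470, 1659 and 1674 in vehicle and 2213, 2106, 2277, 2230 and 1925 with 2BE. All 2BE arrays were higher, by 1.37-fold on average (0.45 ± 0.066, limma adjusted p = 0.000291).

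**Figure D2:**
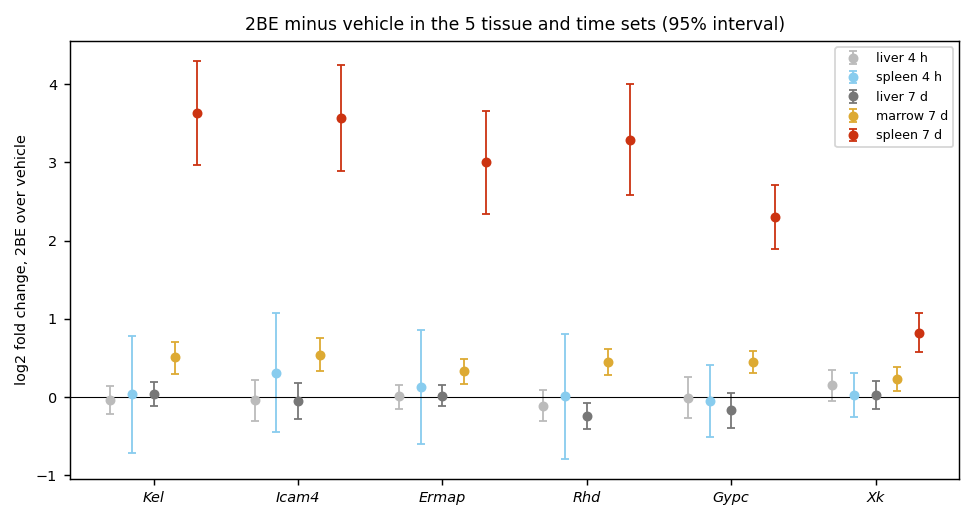
The vertical axis gives the log2 fold change between 2BE and vehicle arrays for each gene, coloured by the 5 tissue and time sets, with 95% intervals from limma. The spleen at 7 d runs from 0.82 for Xk to 3.63 for Kel, the marrow from 0.23 to 0.54, and the intervals of both 4 h sets include 0.

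The 6 genes did not rise by equal amounts in the spleen. The size of the rise was compared for all 15 pairs through the within-array log2 difference between genes, with an exact two-sided permutation test and Benjamini-Hochberg adjustment over the 15 pairs. These pairs were tested after the fold changes had been seen. At 7 d 14 spleen pairs differed at an adjusted p under 0.05, and 13 of these reached 0.00794, the smallest p that 5 against 5 arrays can give. Kel rose 0.64 more than Ermap, 0.34 more than Rhd, 1.33 more than Gypc and 2.81 more than Xk on the log2 scale (adjusted p = 0.00916 in each case). Gypc rose 1.48 more than Xk. The size of the differences from Xk is uncertain, since its vehicle mean lay under the median of all probe sets. The second Xk probe set, not used in these pairs, rose by 1.10 where the brighter rose by 0.82. Kel and Icam4 differed by 0.062 (exact p = 0.373), which did not pass. The order was Kel and Icam4, then Rhd, Ermap, Gypc and Xk.

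In the marrow 0 of 15 pairs passed, the smallest adjusted p being 0.0714. By the unadjusted exact test 6 pairs were under 0.05, among them Kel over Ermap by 0.18 (p = 0.00794).

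At 4 h the spleen gave no called change for any of the 6 (5.16% of all genes were called by limma; 0 of the 6 had an unadjusted p under 0.05). Kel read 1601, 1105, 3066 and 1177 on vehicle replicates 1 to 4 and 1284, 1189, 1791 and 2589 on 2BE replicates 1 to 4. Vehicle replicate 3 was the highest array, and the arms overlapped throughout. The log2 fold change of Kel was 0.037 (95% interval -0.71 to 0.78), that of Icam4 0.31 (-0.45 to 1.07) and that of Rhd 0.0072 (-0.79 to 0.80). Ermap stood at 0.13 (-0.60 to 0.86), Gypc at -0.053 (-0.51 to 0.41) and Xk at 0.031 (-0.25 to 0.31). Intervals this wide do not show that the genes were unaltered. Without vehicle replicate 3 the values were 0.15 to 0.61 and none was called; that of Gypc was then 0.18.

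The change in response between the times was itself tested in the spleen. The 2BE-minus-vehicle difference was larger at 7 d than at 4 h for all 6 genes (25.6% of all genes were called in that direction). The difference between the times was 3.59 ± 0.48 for Kel (limma adjusted p = 1.6e-05), 3.29 ± 0.51 for Rhd, 3.26 ± 0.49 for Icam4 and 2.86 ± 0.47 for Ermap. For Gypc it was 2.35 ± 0.29 (limma adjusted p = 1.0e-05) and for Xk 0.79 ± 0.18 (adjusted p = 0.00153).

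At 7 d the marrow response was smaller than the spleen response for all 6 genes (18.9% of all genes were called in that direction). The marrow-minus-spleen difference was -3.12 ± 0.32 for Kel (limma adjusted p = 7.2e-08), -3.03 ± 0.33 for Icam4, -2.84 ± 0.36 for Rhd and -2.67 ± 0.32 for Ermap. It was -1.85 ± 0.14 for Gypc (limma adjusted p = 1.1e-09) and -0.59 ± 0.13 for Xk (adjusted p = 0.000846). Whether tissues with the same replicate number came from the same mouse is not given in the labels, and the fit treated the arrays as independent.

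In the liver none of the 6 genes passed the test. At 4 h 0 of the 6 were called (4.51% of all genes) and 0 had an unadjusted p under 0.05, with log2 fold changes from -0.11 (Rhd) to 0.15 (Xk). With the replicate number as a block these were -0.15 and 0.20, 0 of the 6 were called, and 471 genes in place of 821 were called. At 7 d 0 were called (0.748% of all genes). Rhd stood lower at -0.24 ± 0.080 with an unadjusted p of 0.00768 and a limma adjusted p of 0.203, on 65.9 to 83.1 in vehicle and 57.8 to 65.9 with 2BE. The means of Kel, Icam4, Ermap and Xk lay under the median of all probe sets in all 4 liver groups, and those of Rhd and Gypc above it. Ermap was within 0.1 intensity units of 28.3 on 7 of 9 arrays at 7 d, and Kel within 0.1 of 19.5 on 5 of 9. Such repeated low values hold little information on these genes.

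The spleen response exceeded the liver response at 7 d for all 6 genes (25.9% of all genes called in that direction), by 3.62 ± 0.33 for Icam4, 3.59 ± 0.32 for Kel and 3.54 ± 0.38 for Rhd (limma adjusted p = 2.1e-08, 1.5e-08 and 2.0e-07). It did so by 2.98 ± 0.33 for Ermap, 2.47 ± 0.17 for Gypc and 0.80 ± 0.13 for Xk. Between the liver times, and between spleen and liver at 4 h, 0 of the 6 differences were called (0.269% and 1.78% of all genes by limma) and 0 had an unadjusted p under 0.05.

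Proteins that carry or adjoin these 6 in the membrane were followed as a list of 15 measured genes, of 18 listed. Of the 15, 12 rose and 3 fell in the spleen at 7 d (median log2 fold change 2.20), against 32.4% of all genes higher and 32.0% lower. Epb42, encoding protein 4.2 of the band 3 complex, rose 14.0-fold (3.81 ± 0.27, limma adjusted p = 2.5e-08), and Rhag, the Rh partner, rose 10.6-fold (3.40 ± 0.33). The skeleton genes Dmtn (3.36 ± 0.31), Tmod1 (3.21 ± 0.25) and Ank1 (3.15 ± 0.24) rose by like amounts, and the gene of band 3, Slc4a1, rose by 2.36 ± 0.32. The 3 that fell were the glucose transporter gene Slc2a1 (-1.08 ± 0.13), the tropomyosin gene Tpm3 (-0.82 ± 0.077) and Vps13a, whose product binds XK (-0.25 ± 0.080, limma adjusted p = 0.0115). Mpp1, which joins glycophorin C to protein 4.1, rose by 1.35 ± 0.11.

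In the marrow 11 of the 15 partner genes rose and 1 fell (median 0.43), against 9.40% of all genes higher and 10.7% lower. Rhag led (0.72 ± 0.073, limma adjusted p = 2.4e-05), followed by Tmod1 (0.71 ± 0.085), Ank1 (0.65 ± 0.079) and Epb42 (0.63 ± 0.10). At 4 h none of the 15 was called in either tissue, and in the liver at 7 d Slc4a1 alone was called (0.56 ± 0.12, limma adjusted p = 0.0453). Over all genes these shares were 4.51% (liver 4 h), 5.16% (spleen 4 h) and 0.748% (liver 7 d).

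Other genes of human blood group systems were followed in 31 measured mouse orthologues, of 32 listed, including enzymes that build sugar antigens. Slc4a1 and Rhag belong to this list too. Of the 31, 16 rose and 11 fell in the spleen at 7 d (median 0.24), against 32.4% of all genes higher and 32.0% lower. After Rhag, the largest rises were those of Ackr1, the Duffy chemokine receptor (2.84 ± 0.19, limma adjusted p = 1.7e-08), Aqp1, the Colton water channel (2.71 ± 0.24), and Abcb6, the Langereis transporter (2.52 ± 0.24). The largest falls were those of the choline transporter gene Slc44a2 (-1.21 ± 0.18) and of Emp3, the carrier of the MAM antigen (-1.16 ± 0.074). In the marrow 14 rose and 2 fell (median 0.16), against 9.40% of all genes higher and 10.7% lower. Ackr1 and Art4, the Dombrock carrier, both rose by 0.68 in the marrow (SE 0.074 and 0.077, limma adjusted p = 3.4e-05 and 4.9e-05). Emp3 fell there as well (-0.33 ± 0.059).

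At 4 h 2 of the 31 were called in each tissue, near the share of all genes (4.51% in the liver and 5.16% in the spleen). In the liver they were B3galnt1, a globoside synthase (1.08 ± 0.18, limma adjusted p = 0.00251), and Abcc1 (0.35 ± 0.091), both higher. In the spleen they were A4galt, which makes the P1PK antigens (-0.52 ± 0.094, limma adjusted p = 0.00207), and Emp3 (-0.44 ± 0.082), both lower. In the liver at 7 d B3galnt1 (0.91 ± 0.16, limma adjusted p = 0.0121) and Slc4a1 rose.

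Relatives by protein family moved in both directions. Of 19 measured relatives (23 listed) 9 rose and 6 fell in the spleen at 7 d (median 0.16), against 32.4% of all genes higher and 32.0% lower. Apart from Rhag, the butyrophilin gene Btn1a1 rose most (1.38 ± 0.11, limma adjusted p = 3.0e-08). The neprilysin gene Mme, a peptidase of the Kell family, fell (-1.30 ± 0.13, limma adjusted p = 2.2e-07), as did the adhesion gene Icam2 (-1.24 ± 0.14). In the marrow 2 of the 19 rose, Rhag and Btn1a1 (0.48 ± 0.089), and Icam2 fell (-0.69 ± 0.095, limma adjusted p = 0.000203), against 9.40% of all genes higher and 10.7% lower. Icam1 was called higher in the liver at both times (0.67 ± 0.13 at 4 h and 0.81 ± 0.11 at 7 d, limma adjusted p = 0.00616 and 0.00452).

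Of 10 erythroid transcription factor genes 7 rose in the spleen at 7 d and 1 fell (median 2.50). Over all genes 32.4% were called higher there and 32.0% lower. Klf1, an activator of globin and membrane genes, rose 9.20-fold (3.20 ± 0.30, limma adjusted p = 1.1e-07), Nfe2 by 3.03 ± 0.28, Tal1 by 2.82 ± 0.30 and Gata1, whose word is marked in the promoters, by 2.60 ± 0.27. Cbfa2t3, a corepressor gene, fell (-0.48 ± 0.13). In the marrow 7 rose and 1 fell (median 0.36), with Gfi1b at 0.66 ± 0.075 and Gata1 at 0.47 ± 0.073 (limma adjusted p = 4.4e-05 and 0.000504). The shares of all genes were 9.40% higher and 10.7% lower in the marrow. None of the 10 was called in the other 3 comparisons.

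At 7 d most markers of red cell precursors rose with the 6 genes, and B cell markers fell. In the spleen 14 of 14 measured precursor markers (18 listed) rose (median 2.40), against 32.4% of all genes called higher. Hemgn, a nuclear protein of erythroid cells, rose 7.42-fold (2.89 ± 0.33), the transferrin receptor gene Tfrc 6.01-fold (2.59 ± 0.26) and Alas2, of haem synthesis, 2.18-fold (1.12 ± 0.16), with limma adjusted p-values of 7.2e-07, 1.6e-07 and 7.0e-06. The mean log2 level of the 14 was 9.62 to 10.75 on vehicle arrays and 12.34 to 12.65 on 2BE arrays. All 9 B cell markers fell in the spleen (median -1.63, mean level 11.55 to 11.83 against 9.35 to 10.69). Of all genes 32.0% were called lower in that set.

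In the marrow 12 of 14 precursor markers rose (median 0.38), with mean levels of 11.69 to 12.03 in vehicle and 12.14 to 12.28 with 2BE. Over all genes 9.40% were called higher in the marrow and 10.7% lower. Tfrc rose (0.64 ± 0.054, limma adjusted p = 8.7e-06) and Hemgn rose (0.28 ± 0.063), while Alas2 stood at 0.16 ± 0.069 (adjusted p = 0.114). All 9 B cell markers fell there too (median -1.23, 9.12 to 9.29 against 7.60 to 8.21). The part of these changes in cell makeup in the rises of the 6 genes was not tested. In the liver at 7 d 2 precursor markers rose, Slc25a37 (0.57 ± 0.10) and Car2 (0.54 ± 0.071), with limma adjusted p-values of 0.0151 and 0.00359, and at 4 h none was called in either tissue. Of all genes 0.748% were called in the liver at 7 d.

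**Figure D3:**
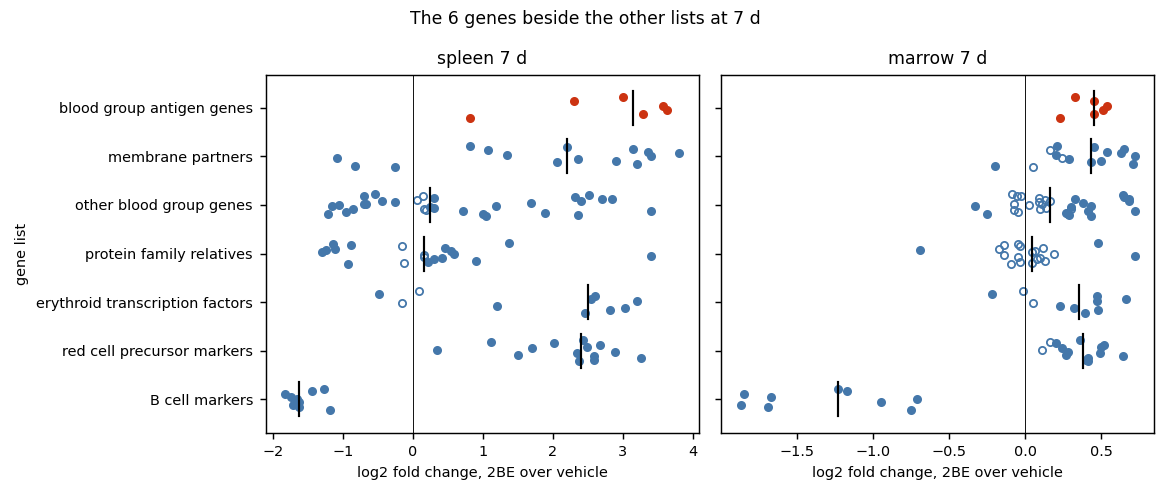
Points are genes, placed by their log2 fold change of 2BE over vehicle in the spleen (left) and marrow (right) at 7 d; filled points passed an adjusted p of 0.05, open points did not, and black bars are list medians. The 6 blood group antigen genes (red) have medians of 3.14 and 0.45, the red cell precursor markers 2.40 and 0.38, and the B cell markers lie below 0 in both tissues.

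Other cell types were followed in the spleen at 7 d as well. For T cells 7 of 9 markers fell and 1 rose (median -1.09), for megakaryocytes 7 of 8 fell (-1.02), for endothelial cells 10 of 10 fell (-0.90) and for macrophages 7 of 10 fell and 1 rose (-0.36). Of the hepatocyte markers 5 of 9 rose (median 0.26), and of the adipocyte markers 3 of 6 fell (-0.89). Over all genes 32.4% were called higher there and 32.0% lower. The hepatocyte markers had mean levels of 5.93 to 6.45 in vehicle and 6.05 to 6.53 with 2BE, under the probe set median of 6.80. The adipocyte mean level was 9.05, 8.13 and 7.85 on vehicle replicates 2, 4 and 5. On vehicle replicates 1 and 3 it was 6.32 and 6.42, near the 6.17 to 6.37 of the 2BE arrays. Of 10 neutrophil markers 0 were called by limma in the spleen at 7 d, in a fit that included the spleen arrays at 4 h. The SE there was 0.67 for Ctsg, so this does not show that the markers were unaltered. Elane stood at 7.28 to 7.81 in vehicle and 8.02 to 8.44 with 2BE. In spleen minus liver at 7 d Ctsg (0.91 ± 0.13), Mpo, Elane and Prtn3 were called higher, and the other neutrophil markers were not called. In the marrow 2 of 10 neutrophil, 2 of 10 macrophage and 2 of 10 endothelial markers fell. So did 2 of 6 adipocyte and 1 of 9 T cell markers, against 10.7% of all genes called lower. There 0 of 8 megakaryocyte and 0 of 9 hepatocyte markers were called by limma. Array values are never 0, so no marker could be called absent, and the part of these cells in the rises was not tested.

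Some arrays stood apart from their group for most of the 6 genes. On spleen vehicle replicate 1 at 7 d, where all 6 genes were at the lowest vehicle value, the precursor markers were lowest too, at 9.62 against 10.52 to 10.75 on the other vehicle arrays. On 2BE replicate 5 the markers were lowest as well, at 12.34 against 12.64 to 12.65, and so were 5 of the 6 genes, while Xk was lowest on replicate 3. Without both arrays, left out after the values had been seen, all 6 genes were still called, with log2 fold changes of 3.38 for Kel, 3.36 for Icam4, 2.97 for Rhd, 2.71 for Ermap, 2.28 for Gypc and 0.82 for Xk. In the spleen at 4 h vehicle replicate 3 was highest for the 6 genes among vehicle arrays and also for the precursor markers, at 11.87 against 11.01 to 11.39. The same array was highest for the neutrophil markers, at 13.44 against 9.54 to 11.44 on the other vehicle arrays, and lowest for the B cell markers, at 10.17 against 10.96 to 11.28. The part of these cells in its values was not tested.

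**Figure D4:**
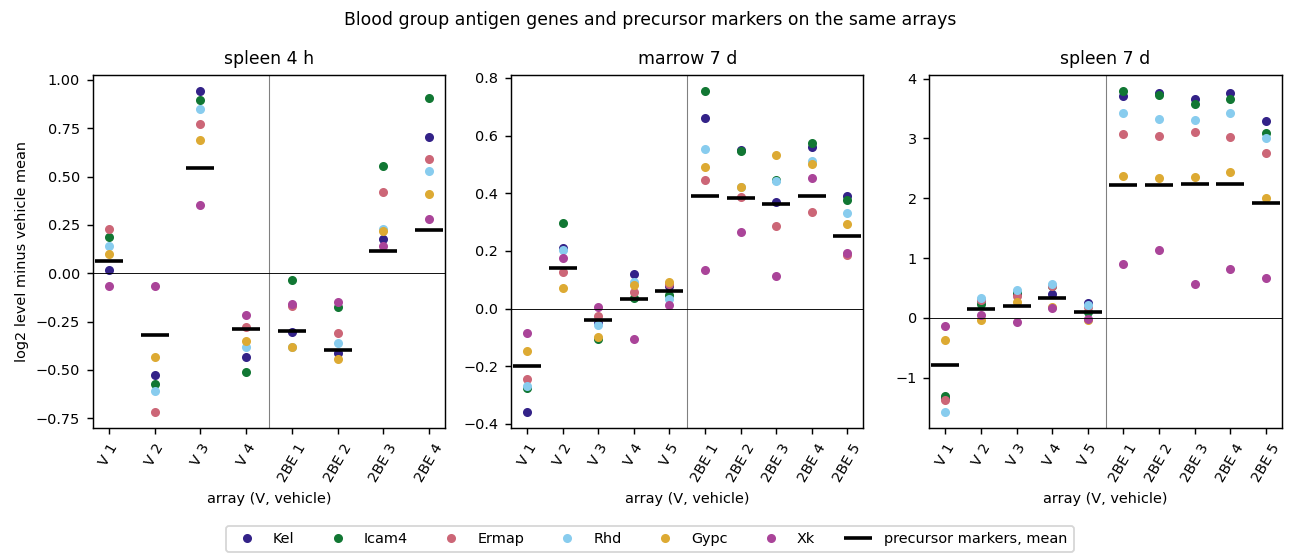
Each column is an array (V, vehicle); coloured points give the log2 level of each gene minus its vehicle mean, and black bars give the same for the mean of 14 red cell precursor markers. The genes and the bars are low together on spleen vehicle replicate 1 at 7 d (bar level 9.62) and high together on spleen vehicle replicate 3 at 4 h (11.87), with Xk nearest to 0 on the 2BE arrays of the spleen at 7 d.

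Likeness of pattern was measured as Pearson's r over the 44 arrays, after the vehicle mean of the tissue and time had been taken from each value, among genes above the median of all probe sets in at least 1 group. It is a description, since the arrays share tissues, normalization and the large shift of the spleen at 7 d. The nearest genes to Kel were 1300017J02Rik (r = 0.996), Fhdc1 (0.995) and the haem synthesis gene Urod (0.994). For Icam4 they were 1300017J02Rik (0.993), Kel (0.992) and Prdx2, a red cell peroxidase gene (0.992). Ermap was nearest to the claudin gene Cldn13 (0.995), the amino acid transporter gene Slc38a5 (0.994) and Kel (0.993), and Rhd to Ermap, Kel and Ypel4 (0.992 each). The nearest to Gypc were Slc25a38, a mitochondrial carrier gene of haem synthesis (0.987), the ankyrin gene Ank1 (0.986) and 1300017J02Rik (0.985). Xk had lower values and other neighbours, Cdca2 (0.932), Klhl12 (0.929) and Psrc1 (0.928), of which Cdca2 and Psrc1 act in cell division. Between Xk and the other 5 genes r was 0.885 to 0.903, and among those 5 it was 0.967 to 0.993.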

How the data were processed

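The authors deposited a table of intensity values on a linear scale (6.16 to 47797.8), and RMA is the tool the submitters' processing notes name, without a version. The 64 control probe sets of 45101 were left out. Platform annotation gave exactly 1 symbol for 34945 probe sets, and 18193 genes were each read from the brightest. Values were analysed as log2(intensity + 1), which understates changes of low genes. A model of group means was fitted within a tissue, or within a time for tissue differences (limma 3.58.1 under R 4.3.3, eBayes without trend); it gave two-sided tests, with Benjamini-Hochberg adjustment over all genes. SE is the moderated standard error. The number of arrays limits the precision. The method was tested on simulated data with independent noise for each gene, which hold no shifts shared across an array.

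The genes named include the 6 genes in every comparison, the 3 genes nearest in pattern and the tissue markers. Up to 4 called genes of largest change were named from the lists of partners, other blood group genes, relatives and transcription factors. From the precursor markers Alas2, Tfrc and Hemgn were named, which are not the 3 of largest change. Icam1, Icam5, Mpp1, Slc4a1, Vps13a, Tpm3 and Slc2a1 were added for their role or after their values were seen. So were Emp3, Slc44a2, Slc25a37, Car2, Gata1, Cbfa2t3 and Ank1. The members and lists were chosen with earlier results of these data known. Deviations of same-numbered arrays correlated at 0.132 to 0.282 in the 3 pairs of the liver at 4 h, and not above 0.1 in every pair elsewhere. Correlations this low over 3 pairs do not show that the numbers pair the liver arrays at 4 h, and the labels do not say. The values reported are from the fit without the block, and the blocked values stand beside them.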

Additional observations from a re-analysis of the deposited data

Results flagged for a closer look

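Of 54 gene and group combinations with at least 4 arrays, 10 had an array far from the others by Dixon's criterion, which chance gives for about 1 in 20 groups. Spleen vehicle replicate 1 at 7 d was far below the next array for Kel (log2 level 7.64 against 9.22), Icam4 (6.18 against 7.58), Ermap (8.87 against 10.43) and Rhd (8.07 against 9.86). Spleen 2BE replicate 5 at 7 d was far below for Kel (12.27 against 12.64), Ermap (13.00 against 13.27) and Gypc (11.46 against 11.80). In the liver at 7 d, vehicle replicate 3 was low for Kel (4.20) and Ermap (4.80) and 2BE replicate 4 for Ermap (4.86 against 4.87), where the other arrays were nearly equal.

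Responses that differed between times or tissues were those of all 6 genes in 3 contrasts. Spleen at 7 d minus spleen at 4 h gave 3.59 for Kel, 3.26 for Icam4, 2.86 for Ermap, 3.29 for Rhd, 2.35 for Gypc and 0.79 for Xk. Marrow minus spleen at 7 d gave -3.12, -3.03, -2.67, -2.84, -1.85 and -0.59 in the same order. Spleen minus liver at 7 d gave 3.59, 3.62, 2.98, 3.54, 2.47 and 0.80.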

How the results depend on the processing

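All 6 genes stayed called in the spleen at 7 d and in the 3 contrasts that involve it under every alternative tried. These were other pseudocounts, a low-value filter, a further quantile normalization, a variance trend and array weights. Another probe set, the replicate block and single arrays left out were tried too. Fewer arrays in the fit were tried for the spleen at 7 d, but not for the contrasts or the marrow. The low-value filter kept Xk only through its 2BE means (7.01 against a median of 6.80 in the spleen at 7 d, 6.68 against 6.46 in the marrow). Its call under that filter therefore adds no support. In the marrow the count was 5 to 6 with single arrays left out, Xk being lost, and 6 under the other alternatives. With the replicate block 0 of the 6 were called in both liver sets and the spleen at 4 h, and 6 in the marrow and the spleen at 7 d; the block changed no other call of the 6. Counts over all genes moved more. In the liver at 4 h (821) the count was 176 with only the arrays of the 2 groups, 471 with the replicate block and 466 to 1090 with single arrays left out. In the spleen at 4 h (938) it was 508 with only the 2 groups. In the liver at 7 d (136) it was 244 with only the 2 groups, 406 with array weights and 36 to 250 with single arrays left out. Causes were not tested.

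Values near 0 changed sign, none of them called. A further quantile normalization gave Gypc 0.024 in the liver and Kel -0.0028 and Rhd -0.028 in the spleen at 4 h. Array weights gave Ermap -0.00077 in the liver and Gypc 0.011 in the spleen at 4 h and Xk -0.015 in the liver at 7 d. The replicate block gave Icam4 0.096 in the liver at 4 h and Xk -0.014 at 7 d. The other Xk probe set, also that of highest variance, gave -0.099 in the liver at 4 h. Among differences, liver at 7 d minus 4 h gave Ermap -0.016 (quantile) and -0.0041 (replicate block), Icam4 0.023 (array weights) and Xk 0.12 (probe set of highest variance). Spleen minus liver at 4 h gave Gypc 0.0033 (replicate block) and 0.034 (array weights) and Xk 0.13 (probe set of highest variance).

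With single arrays left out, ranges in the liver at 4 h were -0.13 to 0.022 for Kel, -0.16 to 0.096 for Icam4, -0.061 to 0.065 for Ermap and -0.056 to 0.062 for Gypc. In the spleen at 4 h they were -0.18 to 0.35 for Kel, -0.11 to 0.39 for Ermap, -0.20 to 0.29 for Rhd, -0.21 to 0.18 for Gypc and -0.055 to 0.15 for Xk. In the liver at 7 d they were -0.0039 to 0.056 for Kel, -0.0037 to 0.024 for Ermap and -0.014 to 0.069 for Xk. Liver at 7 d minus 4 h ranged from -0.14 to 0.11 for Icam4 and -0.049 to 0.078 for Ermap. Spleen minus liver at 4 h ranged from -0.14 to 0.39 for Kel, -0.12 to 0.38 for Ermap, -0.089 to 0.40 for Rhd and -0.20 to 0.19 for Gypc.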
